A study of Mus musculus with 11 samples.

Results

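Interferon-stimulated genes are the genes that cells switch on after interferon binds its receptor. A list of 39 such mouse genes was followed here, and 38 of them were found on the array through 56 of its 41121 usable probes (27567 genes by name). Members were matched by the gene name in the scanner files, by an older synonym or by the transcript accession, and Xaf1 was not found by any of these. Dhx58 is listed on the array under its older name D11Lgp2e and Irf9 as Isgf3g. The study profiled cultured cardiac progenitor cells (mesoangioblasts) on 11 single-colour Agilent mouse arrays. The KO-labelled progenitors came from beta-sarcoglycan null (dystrophic) mice and the WT-labelled progenitors from wild-type mice, each from atrium, ventricle and aorta, and C2C12, an established mouse myoblast line, served as the myogenic control. The age and strain of the mice and any treatment of the cells are not given in the sources used here. After arrays that differed by less than the noise between repeated spots were joined, 3 KO-labelled samples (ventricle, aorta, atrium), 3 WT-labelled samples (atrium, ventricle, aorta) and 2 C2C12 samples remained, so each heart region holds 1 sample per genotype. The series design calls them biological triplicates, but the labels do not say that samples came from separate mice, so a p-value here reflects only how far these samples lie apart, which within a genotype is the spread between heart regions.

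Type I interferons signal through a receptor pair to the kinases Jak1 and Tyk2, which phosphorylate transcription factors such as Stat2. Stat2 enters a complex with Irf9 that binds the interferon-stimulated response element (ISRE) in the promoters of target genes. Interferon gamma acts mainly through another element, the gamma-activated site (GAS). The induced proteins sense viral RNA, degrade it, block translation or modify other proteins, and several of them (Irf7, Irf9, Stat2) are themselves parts of the pathway. In heart and muscle, as in other tissues, low amounts of these transcripts are present without infection.

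The promoters of some members hold this element close to the gene start. RefSeq promoter windows (GRCm38.p6) were at hand for 30 members, and the 250 bases before each start were searched on both strands for the ISRE core GAAANNGAAA, where N is any base. The core was found in 12 of the 30 (40%), against 3.46% of all 27025 genes in the table. The following stretches, read 5′ to 3′ on the strand of the gene and all lying before the gene start, are shown because they belong to members that were lower in the KO-labelled progenitors. Capitals mark the ISRE core, which reads TTTCNNTTTC where it lies on the other strand.
Oas1a (chr5:120907526-120907564, minus strand): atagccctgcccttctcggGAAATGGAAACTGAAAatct
Isg15 (chr4:156200850-156200909, minus strand): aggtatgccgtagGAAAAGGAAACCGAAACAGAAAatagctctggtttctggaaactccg
Ifit1 (chr19:34640779-34640838, plus strand): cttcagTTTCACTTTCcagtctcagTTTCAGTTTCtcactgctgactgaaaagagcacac
Ifit3 (chr19:34583382-34583441, plus strand): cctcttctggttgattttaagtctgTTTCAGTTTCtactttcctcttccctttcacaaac
Rsad2 (chr12:26456538-26456597, minus strand): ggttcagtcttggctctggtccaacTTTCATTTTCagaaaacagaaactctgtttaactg
Gbp2 (chr3:142620579-142620638, plus strand): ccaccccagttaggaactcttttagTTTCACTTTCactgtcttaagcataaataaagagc
Gbp3 (chr3:142559980-142560039, plus strand): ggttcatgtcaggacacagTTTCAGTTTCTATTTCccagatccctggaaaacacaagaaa
Igtp (chr11:58199497-58199555, plus strand): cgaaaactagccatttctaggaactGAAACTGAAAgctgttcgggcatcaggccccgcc
Stat2 (chr10:128270251-128270310, plus strand): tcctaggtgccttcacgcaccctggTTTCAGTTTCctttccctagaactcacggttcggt

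Isg15 held 3 overlapping cores between 78 and 66 bases before its start. Oas1a, Ifit1, Ifit3 and Gbp3 held 2 each, the second of Ifit3 lying 156 bases before its start and outside the stretch shown. Oas3, Bst2 and Oas1g also had the core, and its position differed between members, from 12 bases before the start in Oas1g to 222 in Stat2. The GAS core TTCNNNGAA was found in 7 of the 30 members (23.3%) and in 8.13% of all genes. A match describes the letters of this window and does not show that a factor was bound in these cells. No window was found in the table for Mx1, Mx2, Usp18, Oas1b, Oas2, Dhx58, Rtp4, Parp14 and Iigp1.

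**Figure D1:**
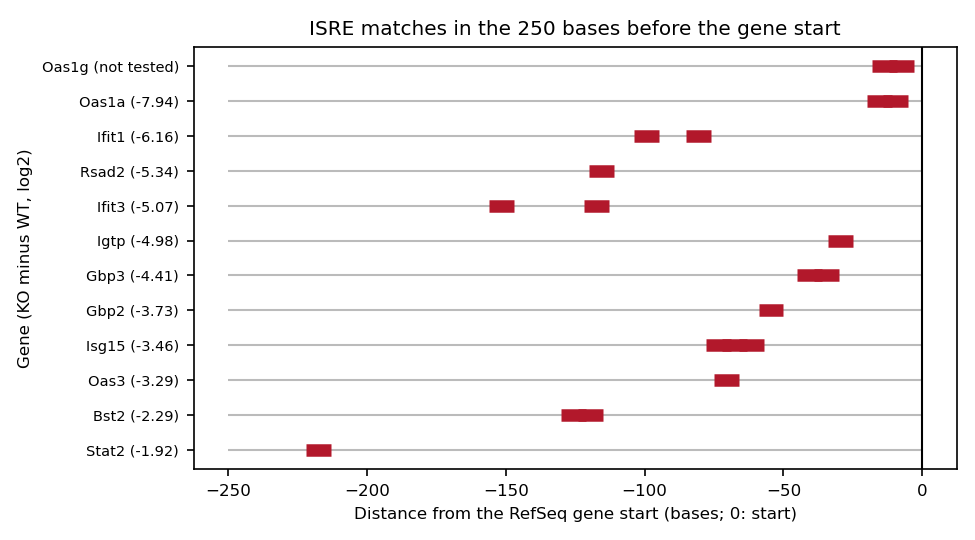
Positions of ISRE core matches (red) in the 250 bases before the RefSeq gene start (grey lines, x axis in bases) of the 12 members that hold one. The KO-labelled minus WT-labelled difference on the log2 scale stands beside each name, and the 11 tested members all lie below 0; for Oas1a and Rsad2, at the background in the KO-labelled samples, the value is a distance to the background.

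Some facts of the whole series bear on every result. On each array 49.0% to 61.9% of probes were well above background, the scanner software's flag for a spot brighter than its surroundings. Levels below are log2 signals minus the array's 75th percentile of log2 signal, so 0 is a bright probe and values near -7 are at the background. Sgcb, the targeted gene, had a level of 2.66 ± 0.32 in the KO-labelled samples (SD, n = 3) and 2.03 ± 0.19 in the WT-labelled ones (SD, n = 3), a difference of 0.63 (limma adjusted p = 0.0710), so its probe was not lower in the samples labelled as null. Whether the probe lies in the deleted part is not given in the sources used here. The 5 skeletal myoblast markers (Myod1, Myf5, Myog, Cdh15, Des) were above background on every KO-labelled and C2C12 array, with a summed level, as a multiple of the 75th percentile, of 31.1 to 95.7 and 47.0 to 103 against 0.0812 to 0.0920 in the WT-labelled samples. Of 13 leukocyte markers 7 were above background on no WT-labelled array (Ptprc, Adgre1, Itgam, Cd79a, Fcgr3, Tyrobp, Cd52) and 4 on every one (Lyz2, Csf1r, Cd14, Cd3e). The summed level was 1.42 to 2.13 in KO-labelled and 1.63 to 3.69 in WT-labelled samples. Csf1r (-1.40), Cd14 (0.82) and Cd3e (-0.40) did not pass the test between KO-labelled and WT-labelled samples (limma adjusted p = 0.0873, 0.339 and 0.156). Lyz2, a myeloid lysozyme, was above background on all 3 WT-labelled arrays and on no other, at least 44.9-fold above the KO-labelled samples. All 6 endothelial markers were below background on every progenitor array. Of 4 fibroblast or stromal markers, Thy1 was above background on no KO-labelled array and at least 1293-fold higher in the WT-labelled samples, and Pdgfra (-4.11) and Dcn (-4.16) were lower in the KO-labelled samples and Col1a1 (0.77) higher; their summed level was 72.7 to 76.0 in KO-labelled and 78.8 to 136 in WT-labelled samples. The summed level of 5 pericyte or mesoangioblast markers was 18.6 to 24.8 in KO-labelled, 8.03 to 10.8 in WT-labelled and 44.0 to 45.3 in C2C12 samples. Anpep was 6.69 and Pdgfrb 1.30 higher in KO-labelled than in WT-labelled samples (log2). Cspg4 did not pass (0.46), and Rgs5 and Alpl were above background on no progenitor array. The summed level of 5 cardiomyocyte markers was 19.4 to 41.3, 2.31 to 6.25 and 22.9 to 49.3 in the same order. Nkx2-5 was above background on every KO-labelled and C2C12 and no WT-labelled array, and Tnnt2 was 3.07 higher in KO-labelled than in WT-labelled samples (log2). Myh6 and Actn2 were above background on 2 of 5 KO-labelled arrays, every C2C12 and no WT-labelled array, and Ryr2 on no array. The part of these markers in the results was not tested, and in bulk RNA fewer cells of a type and less RNA per cell cannot be told apart. No slide held both KO-labelled and WT-labelled samples, so slide and genotype can be compared only through the C2C12 sample on each side.

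The first question was how the KO-labelled progenitors differ from the WT-labelled ones. Most of the interferon-stimulated genes fell in the KO-labelled samples: of 36 members that could be tested, 27 were lower and 1 (Ifitm1) was higher, and 8 did not pass the test (limma, Benjamini-Hochberg adjusted p below 0.05 over 15002 genes). Among all genes tested, 16.1% were lower and 13.7% higher. The median difference of the members was -3.29 on the log2 scale, with -0.06 for all genes, and Ifitm1 stood at 3.59. In 32 of the 36 members every WT-labelled sample lay above every KO-labelled one, an arrangement seen in 27.3% of all genes tested, and in 3 members the groups overlapped.

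Detection shaped part of this picture. All 36 tested members were well above background on every WT-labelled array, but 7 of them (Mx2, Usp18, Oas1a, Oas1b, Oas2, Rsad2, Iigp1) were on no KO-labelled array and 6 more on only some. In 10 members (these 7 with Oas3, Ifi44 and Irf7) too few KO-labelled arrays were above background to meet the filter of 3 arrays on their own, so these members passed through the group in which they were high and had to differ. For the 7, fold differences are lower bounds, taken as the WT-labelled mean over the dimmest signal counted as well above background. With these 7 at their bounds the members' median difference was -2.98. Among the 23 members above background on all 8 heart arrays, 14 were lower and 1 was higher, with 15.1% lower and 11% higher over the 12193 genes that met the same condition. Mx1, the nuclear antiviral GTPase, was not tested: its levels were -4.19, -4.83 and -4.50 in WT-labelled atrium, ventricle and aorta, above background on 2 of the 3 arrays, and it was above background on no KO-labelled or C2C12 array. Oas1g was above background on no array. With another background correction (normexp with an offset of 50), 21 of the 28 calls remained; Oas1b, Oas2, Oas3, Ifit2, Ifi44, Dhx58 and Irf7 no longer passed, and the difference of Oas3 was -0.72.

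**Figure D2:**
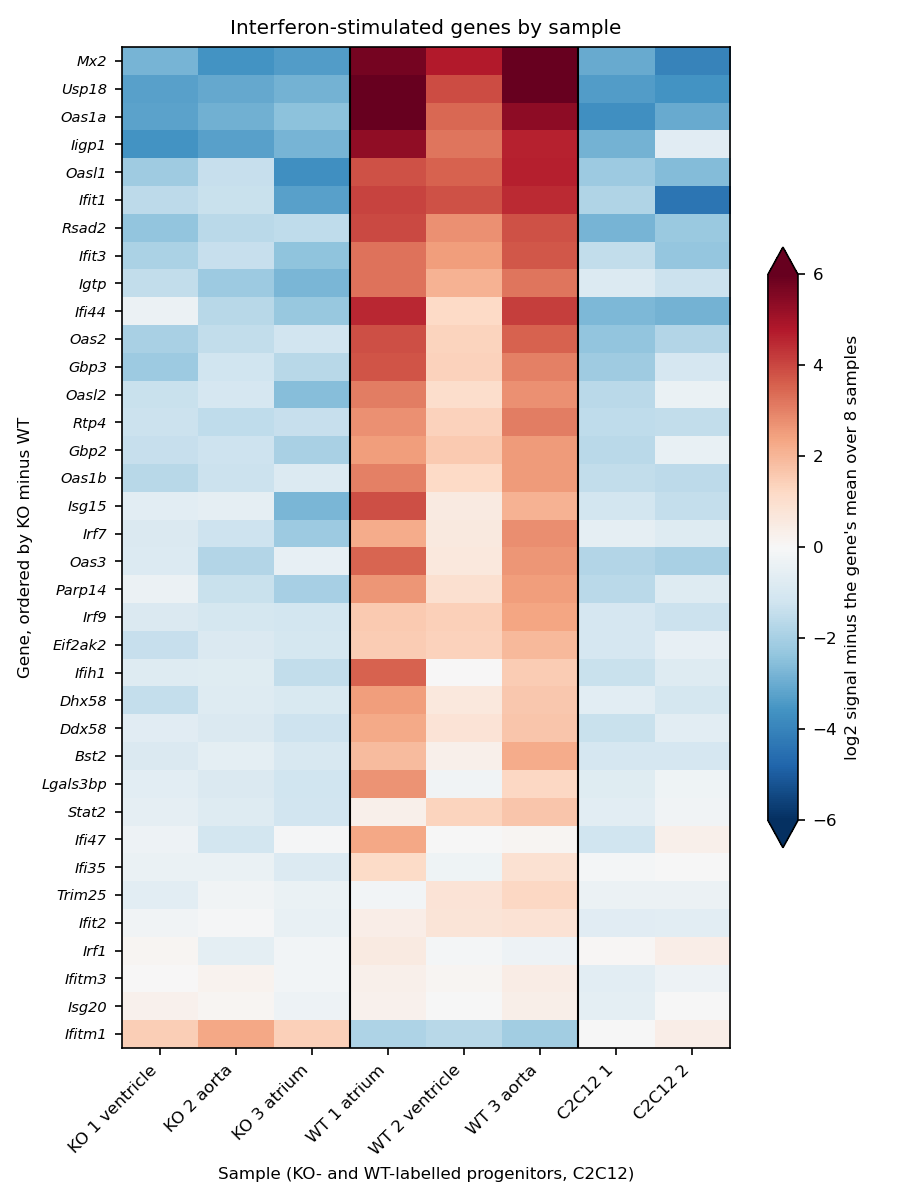
Level of the 36 tested members (rows, ordered by the KO-labelled minus WT-labelled difference) in the 8 samples (columns), as log2 signal minus the mean of that gene over the samples. The 3 WT-labelled columns are red for most genes and the KO-labelled and C2C12 columns blue, WT ventricle is paler than the other WT-labelled samples, and the bottom row (Ifitm1) runs the other way.

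Slide mattered for how many calls remained. When the slide of the WT-labelled samples was added to the fit, each progenitor group was in effect set against the C2C12 sample on its own slides (sample 2 for the WT-labelled and sample 1 for the KO-labelled progenitors), and the standard error of a member's difference grew 2.01 times (median). Then 11 members remained lower (Mx2, Usp18, Oas1a, Oasl1, Ifit1, Ifit3, Irf9, Rsad2, Eif2ak2, Igtp, Iigp1) and Ifitm1 remained higher, with 2.42% of all genes lower and 3.22% higher in that fit. The other 16 kept a negative difference, which was at least as large as without the slide in 7 of them, with adjusted p-values from 0.0687 (Rtp4) to 0.374 (Isg15). Leaving out the WT aorta sample gave 15 lower of 29 tested, where the 7 members at the background in the KO-labelled samples no longer passed the filter and Oas3, Isg15, Ifit2, Ifi44 and Bst2 lost their calls in the test.

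**Figure D3:**
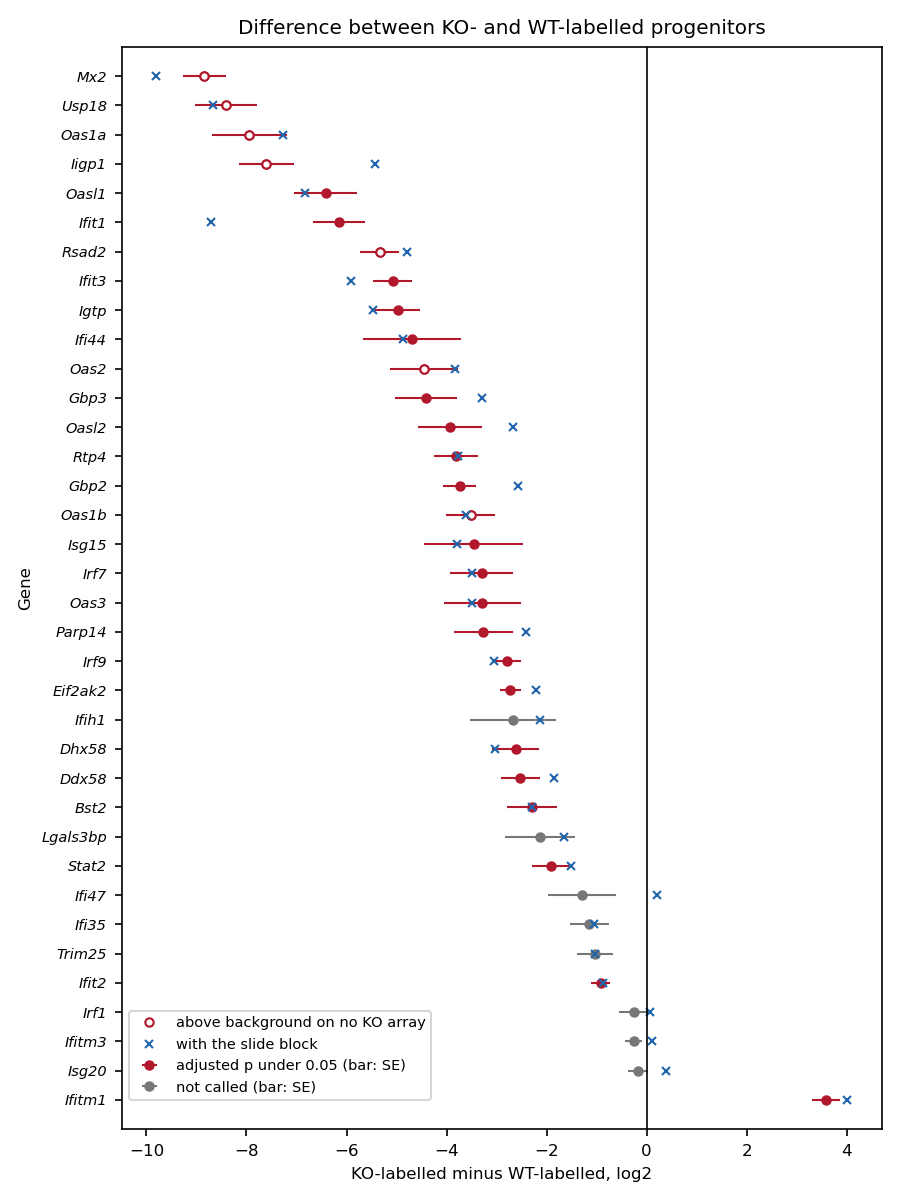
Difference between KO-labelled and WT-labelled progenitors (x axis, log2) for the 36 tested members, with bars of 1 standard error from limma. Red points passed an adjusted p of 0.05, open points mark the 7 members above background on no KO-labelled array, and blue crosses give the difference with the slide in the fit, which lies to the right of 0 for Ifi47, Irf1, Ifitm3, Isg20 and Ifitm1.

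Among the sensors of viral RNA, 2 of 4 were lower, beside 16.1% of all genes tested. Ddx58, which encodes RIG-I, had levels of -2.87, -3.03 and -3.43 in KO-labelled ventricle, aorta and atrium and of 0.10, -1.35 and -0.51 in WT-labelled atrium, ventricle and aorta. The groups did not overlap, and the difference was -2.52 ± 0.38 (SE, limma adjusted p = 0.00518), 5.75-fold. Its other tested probes gave -2.82 and -2.80. Dhx58 (LGP2, a regulator of the other RNA sensors) differed by -2.62 ± 0.48 (adjusted p = 0.00980). Ifih1 (MDA5, the sensor of long double-stranded RNA) did not pass the test: WT-labelled atrium stood at 1.65, aorta at -0.36 and ventricle at -1.88, while KO-labelled samples lay between -3.35 and -2.61, a difference of -2.68 ± 0.86 (adjusted p = 0.0623); it passed without WT atrium (-1.76, adjusted p = 0.0444) or without WT ventricle (-3.52, adjusted p = 0.0220). Trim25, the ubiquitin ligase that acts on RIG-I, differed by -1.03 ± 0.37 (adjusted p = 0.0831), whereas its dimmer probe passed the test at -0.88 (adjusted p = 0.0368 over all probes) and the brighter one passed without WT atrium (-1.42, adjusted p = 0.00605).

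Of the transcription factors, 3 of 4 were lower, beside 16.1% of all genes tested. Irf7 met the filter only through the WT-labelled arrays and had to be lower. Of the 3 factors above background on every heart array, 2 were lower. Irf9, the DNA-binding part of the complex that recognises the ISRE, was at -2.09, -2.26 and -2.29 in KO-labelled ventricle, aorta and atrium. In WT-labelled atrium, ventricle and aorta it was at 0.36, 0.21 and 1.15. Both groups were tight relative to the gap between them, and the difference of -2.79 ± 0.27 (limma adjusted p = 0.000904) corresponds to 6.90-fold; the second probe gave -3.02. Stat2, its partner, differed by -1.92 ± 0.37 (adjusted p = 0.0125), with WT-labelled atrium (-1.19) the lowest of its group, and without KO-labelled atrium its adjusted p was 0.0506. Irf7, which amplifies interferon production, differed by -3.30 ± 0.63 (adjusted p = 0.0118) but was above background on only 1 of 5 KO-labelled arrays. Irf1, a factor induced mainly by interferon gamma, was a bright probe in all samples: KO-labelled values were 3.66, 2.98 and 3.36 and WT-labelled values 4.11, 3.42 and 3.25. These overlapped, the difference was -0.26 ± 0.29 (adjusted p = 0.545), and its second probe gave 0.07.

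Of the 4 tested antiviral effectors 3 were lower, beside 16.1% of all genes tested. Mx2 and Rsad2 met the filter only through the WT-labelled arrays and had to be lower. Of the 2 effectors above background on every heart array, 1 (Eif2ak2) was lower. Mx2, a dynamin-like antiviral GTPase, was at the background in the KO-labelled samples (-6.08, -6.84 and -6.64) and bright in WT-labelled atrium, ventricle and aorta (2.45, 1.47 and 3.03). The WT-labelled level was at least 155-fold above that of the KO-labelled samples. The fitted difference of Mx2 (-8.84 ± 0.43, limma adjusted p = 6.79e-05) is a distance to the background, and its p-value is not evidence of its own. Rsad2 (viperin, a radical-SAM enzyme that blocks viral replication) was at -1.34, -2.53 and -1.48 in the WT-labelled samples and likewise below background in the others, so the WT-labelled level was at least 9.04-fold above the KO-labelled one. All 3 of its probes were above background on every WT-labelled array and on no KO-labelled one. Eif2ak2, the kinase PKR that halts translation, was measured on every array: -0.73, -0.23 and -0.42 in KO-labelled ventricle, aorta and atrium against 2.19, 2.04 and 2.57 in WT-labelled atrium, ventricle and aorta. Its spread was small in both groups and the difference of -2.72 ± 0.21 (adjusted p = 0.000366) is 6.61-fold. The exonuclease gene Isg20 lay between 0.19 and 0.86 in every progenitor sample and differed by -0.18 ± 0.20 (adjusted p = 0.559).

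All 6 tested oligoadenylate synthetase genes were lower, beside 16.1% of all genes tested. The active enzymes of this family bind double-stranded RNA and make the activator of RNase L. Oas1a, Oas1b, Oas2 and Oas3 met the filter only through the WT-labelled arrays and had to be lower. Only 1 gene of the family, Oasl2, was above background on every heart array, and it was lower. Oas1a was at -7.55, -7.21 and -6.77 in KO-labelled ventricle, aorta and atrium, all below background. In WT-labelled atrium, ventricle and aorta it was at 2.14, -0.88 and 1.03, so the WT-labelled level was at least 52.8-fold the KO-labelled one. The fitted difference of Oas1a (-7.94 ± 0.75, limma adjusted p = 0.000826) is a distance to the background, and its p-value is not evidence of its own. Oas2 and Oas1b showed the same arrangement at dimmer levels, with bounds of 4.89-fold and 2.45-fold. Oas1a, Oas1b and Oas1g are close paralogs, and cross-hybridisation between their probes was not tested. Oasl1, a repressor of Irf7 translation, could be measured on 4 of 5 KO-labelled arrays: -4.30, -3.54 and -5.86 against 1.66, 1.40 and 2.49, an 85.4-fold difference (-6.42 ± 0.63, adjusted p = 0.000942). Oasl2 was above background on every array and differed by -3.93 ± 0.64 (adjusted p = 0.00671). Oas3 differed by -3.29 ± 0.77 (adjusted p = 0.0235), with 1 of 5 KO-labelled arrays above background, and without any single KO-labelled sample, or without WT aorta, its adjusted p reached up to 0.0825. A second Oas3 probe, above background on 1 KO-labelled and 1 WT-labelled array, was not tested, and its groups overlapped. It read -5.46, -6.08 and -5.35 in KO-labelled ventricle, aorta and atrium and -3.74, -6.19 and -5.37 in WT-labelled atrium, ventricle and aorta.

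Both genes of the ISG15 system were lower, beside 16.1% of all genes tested, but Usp18 met the filter only through the WT-labelled arrays and had to be. Usp18, the protease that removes ISG15 from proteins and dampens receptor signalling, was at -7.15, -6.97 and -6.74 in the KO-labelled samples and at 2.09, -0.01 and 2.29 in WT-labelled atrium, ventricle and aorta. It was above background on no KO-labelled array, and the WT-labelled level was at least 85.2-fold higher. The fitted difference of Usp18 (-8.41 ± 0.62, limma adjusted p = 0.000305) is a distance to the background, and its p-value is not evidence of its own. Isg15 itself, the ubiquitin-like modifier, was measured on every array and varied widely: -0.56, -0.49 and -2.70 in KO-labelled ventricle, aorta and atrium and 3.91, 0.59 and 2.13 in WT-labelled atrium, ventricle and aorta. WT ventricle lay nearest to the KO-labelled samples, and the difference of -3.46 ± 0.98 (adjusted p = 0.0439) lost its call under 8 of 16 alternatives, among them the omission of any KO-labelled sample, of WT atrium or of WT aorta, with an adjusted p of up to 0.120 without KO-labelled atrium. The array design places its probe on chromosome 17, whereas RefSeq has the gene on chromosome 4, and the cause of this was not tested.

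The 3 IFIT genes, whose proteins bind foreign RNA ends and block its translation, were lower to unequal degrees, beside 16.1% of all genes tested. Ifit1 was at -4.76, -4.54 and -6.43 in KO-labelled ventricle, aorta and atrium, with 4 of 5 arrays above background, and at 0.84, 0.65 and 1.26 in WT-labelled atrium, ventricle and aorta. This was a 71.5-fold difference (-6.16 ± 0.52, limma adjusted p = 0.000553). Ifit3 was at -4.26, -3.74 and -4.77 against 0.91, 0.17 and 1.37, a 33.7-fold difference (-5.07 ± 0.39, adjusted p = 0.000370). Both pairs of groups were far apart, and WT ventricle was the lowest WT-labelled sample for each. Ifit2 moved least: -1.60, -1.44 and -1.85 against -0.99, -0.62 and -0.52, or 1.89-fold (-0.92 ± 0.19, adjusted p = 0.0154), and its second probe gave -1.07. Its call was lost without WT ventricle, WT aorta or KO-labelled atrium, with an adjusted p of up to 0.0596.

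The membrane proteins went in different directions. Bst2 (tetherin, which holds budding virus at the cell surface) was lower, at 0.56, 0.87 and 0.49 in KO-labelled ventricle, aorta and atrium and at 3.35, 1.76 and 3.69 in WT-labelled atrium, ventricle and aorta (difference -2.29 ± 0.51, limma adjusted p = 0.0196). Without KO-labelled ventricle, KO-labelled atrium or WT aorta its adjusted p rose to between 0.0589 and 0.0695. Ifitm1, which restricts virus entry at the membrane, was the only member that rose: 0.24, 1.05 and 0.18 against -3.09, -2.89 and -3.32. The difference was 3.59 ± 0.28 (adjusted p = 0.000366), or 12.1-fold, and the C2C12 samples at -1.28 and -0.85 lay between the 2 groups. Its relative Ifitm3 lay between 5.20 and 5.81 in all progenitor samples, with a difference of -0.26 ± 0.17 (adjusted p = 0.295).

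Of the 5 members grouped here as interferon-induced GTPases, 4 were lower, beside 16.1% of all genes tested. Iigp1 met the filter only through the WT-labelled arrays and had to be lower. Of the 4 above background on every heart array, 3 were lower. Iigp1 was below background on every KO-labelled array (-7.44, -7.08, -6.64) and at 1.48, -0.61 and 0.78 in WT-labelled atrium, ventricle and aorta, at least 45.5-fold higher there. Igtp was measured throughout, at -2.38, -3.10 and -3.64 in KO-labelled ventricle, aorta and atrium against 2.33, 1.17 and 2.31, a 31.5-fold difference (-4.98 ± 0.45, limma adjusted p = 0.000701). Gbp3 fell by 4.41 ± 0.62 (adjusted p = 0.00376) and Gbp2 by 3.73 ± 0.33 (adjusted p = 0.000648) on the log2 scale. Ifi47 did not pass: WT atrium stood alone at -0.72, while WT ventricle (-3.04) and aorta (-2.93) lay close to KO-labelled atrium (-3.08), and the difference was -1.29 ± 0.68 (adjusted p = 0.204). Among the remaining members, Rtp4, a receptor-transporting protein, was at -0.38, -0.63 and -0.47 against 3.66, 2.32 and 3.98, a 14.0-fold difference (-3.81 ± 0.43, adjusted p = 0.00172). Ifi44 differed by -4.70 ± 0.98 (adjusted p = 0.0161, 1 of 5 KO-labelled arrays above background; up to 0.0613 without KO-labelled aorta, KO-labelled atrium or WT aorta) and Parp14, an ADP-ribosyltransferase, by -3.27 ± 0.59 (adjusted p = 0.00975). The secreted glycoprotein gene Lgals3bp (-2.14 ± 0.70, adjusted p = 0.0656) and Ifi35 (-1.15 ± 0.39, adjusted p = 0.0732) did not pass, and for both WT ventricle was the lowest WT-labelled sample. Without it they passed, at -2.87 (adjusted p = 0.0163) and -1.58 (adjusted p = 0.00967).

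Read against their promoters, the 11 tested members with an ISRE core in the window were all lower, with a median difference of -4.41, or -3.73 with Oas1a and Rsad2 at their bounds. The 17 tested members whose window lacked it held 8 lower and 1 higher, with a median of -2.14. Over all genes tested, 16.1% were lower and 13.7% higher. Oas1a, Rsad2 and Oas3 among those with the core met the filter only through the WT-labelled arrays and had to be lower. The same holds for Ifi44 and Irf7 among those without it. Oasl1 and Irf9 were among those without a match. This is a description of 28 members, with no test.

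The rest of the pathway was followed with a separate list of 86 genes, of which 71 could be tested between the progenitors. Of these, 37 were lower and 5 higher, with a median difference of -0.73, beside 16.1% lower and 13.7% higher over all genes. Among the 56 above background on every heart array, 25 were lower and 3 higher, with 15.1% and 11% over all genes that met this condition. The steps before the induced genes moved less. No ligand gene could be tested: of the 7 listed, Ifna1 was above background on 1 WT-labelled and 2 C2C12 arrays and on no KO-labelled array. None of 5 receptor genes passed the test, and their differences lay between -0.19 (Ifngr2) and 0.20 (Ifnar1). Sensors and adaptors held 4 lower of 9, the kinases and IRFs after the sensors 2 lower of 5, and the inhibitors 2 lower and 1 higher of 8. The groups are small, and the counts of the inhibitors lie near the share over all genes.

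Most of the differences in this second list were in its 39 tested induced genes, with 25 lower and 3 higher and a median of -1.57. Among the 27 of them above background on every heart array, 15 were lower and 2 higher, with a median of -0.74. By adjusted p the first 12 of the pathway list began with the antigen-processing genes Tap1, the peptide transporter (-5.52 ± 0.16, limma adjusted p = 1.7e-05), and Psmb9, an immunoproteasome subunit (-5.81 ± 0.20, adjusted p = 2.62e-05). Both were above background on every WT-labelled and on no KO-labelled array, with bounds of at least 15.8-fold and 32.0-fold. Trim30a, Trim34a, Cmpk2, Gbp4, Gbp6 and the RNA sensor gene Tlr3 were likewise above background on every WT-labelled and on no KO-labelled array, with WT-labelled levels at least 32.3-, 4.55-, 4.39-, 4.02-, 3.11- and 1.95-fold higher. These genes, with Tap1 and Psmb9, met the filter only through the WT-labelled arrays and had to be lower. Their place in the order by adjusted p is therefore not evidence of its own. Trim21, an intracellular antibody receptor (-2.97), Sp100, a nuclear body protein (-4.93), and Tdrd7 (-1.87) were lower too. Ifi30, a lysosomal thiol reductase, ran the other way at 2.34 ± 0.22 (adjusted p = 0.000791).

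**Figure D4:**
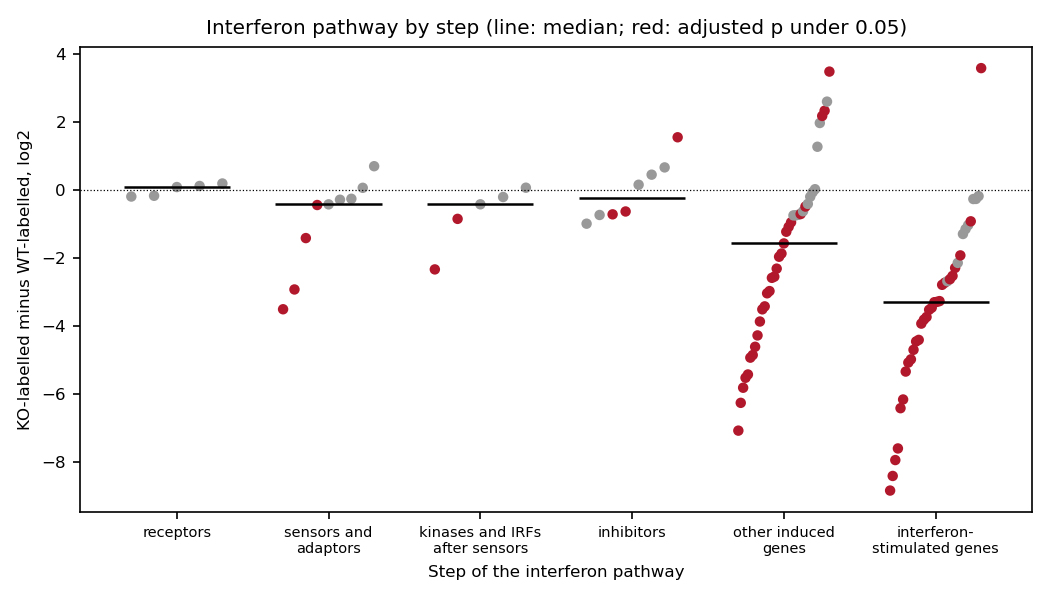
Difference between KO-labelled and WT-labelled progenitors (y axis, log2) for tested genes of 5 groups of the interferon pathway list, with the member genes in the last column. Each point is a gene, red where the limma adjusted p is below 0.05, and lines are medians, from 0.09 for the receptors to -1.57 for the other induced genes and -3.29 for the members.

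The C2C12 control line asks how each progenitor group compares with a myoblast. The 2 comparisons share the C2C12 samples and are therefore given side by side, not as support for each other. Between KO-labelled progenitors and C2C12, limma called 0 of 36 members higher and 0 lower, with 0.664% of 15807 genes higher and 0.588% lower; 2 members had an unadjusted p below 0.05. The median difference was 0.02 and the largest was 1.56 for Ifitm1 (adjusted p = 0.0720), which was called with median scaling and with every array as its own sample. A value that misses the threshold does not show that levels were alike: for Iigp1 the fitted difference was -1.45 and for Ifi44 1.34, and Iigp1 was above background on no KO-labelled array and on 1 of 3 C2C12 arrays.

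Between WT-labelled progenitors and C2C12, 28 members were higher and 1 (Ifitm1, -2.03 ± 0.30, limma adjusted p = 0.00299) was lower, with 13.8% of all genes higher and 13.2% lower. Mx2, Usp18, Oas1a, Oas1b, Oas2, Oas3, Ifi44, Irf7, Rsad2 and Iigp1 met the filter only through the WT-labelled arrays. These members had to differ in that direction. Among the 23 members above background on every array, 15 were higher and 1 was lower. Of the 12151 genes that met this condition, 1658 were higher and 1307 lower. With the slide in the fit 19 were higher and Ifitm1 remained lower, with 7.36% of all genes higher and 7.1% lower; Oas3, Oasl2, Isg15, Dhx58, Irf7, Stat2, Bst2, Ifitm3 and Parp14 then no longer passed, nor did they without C2C12 sample 1. The median difference was 3.24, or 2.80 with the 8 members below background in C2C12 at their bounds. Mx2 was at least 222-fold, Usp18 at least 127-fold and Oas1a at least 78.6-fold above C2C12, in which all 3 were below background. The comparison between the progenitors uses the same WT-labelled samples, so members found in both comparisons are largely built in. The share of such genes over all genes was not computed. Of the 28 members, 27 were also lower in KO-labelled than in WT-labelled progenitors. Ifitm3 was the other, 0.76 ± 0.19 above C2C12 (adjusted p = 0.0272), a call lost without C2C12 sample 1 or WT aorta (adjusted p up to 0.175) and also with median scaling, with no filter on dim probes and with the slide in the fit. The 7 members that did not pass here were Isg20, Ifi35, Ifi47, Ifih1, Irf1, Trim25 and Lgals3bp, of which Ifih1 and Trim25 passed without WT atrium and Ifih1, Ifi35 and Lgals3bp without WT ventricle. Leaving out WT aorta gave 17 higher of 30 tested.

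Among the heart regions, WT ventricle was the lowest WT-labelled sample in 31 of 36 members, an arrangement found in 28.6% of all genes tested. It lay more than 1 below the mean of WT atrium and aorta on the log2 scale in 23 members, against 3.79% of all genes, and the median gap was -1.28, with -0.00053 over all genes. The widest gap was that of Ifi44, at 0.08 in atrium, -0.29 in aorta and -3.26 in ventricle. Ifih1 followed at 1.65, -0.36 and -1.88. At the other end, Ifit1 (0.84, 1.26 and 0.65), Eif2ak2 (2.19, 2.57 and 2.04) and Irf9 (0.36, 1.15 and 0.21) had narrower gaps. The median SD of a member over the 3 WT-labelled samples was 0.84 and over the KO-labelled ones 0.40, with 0.28 and 0.18 for all genes.

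With 1 WT-labelled sample per region, this pattern has no replicate of its own. The test for a region effect shared by both genotypes called 0 of 36 members and 0% of all genes; 3 members had an unadjusted p below 0.05 in limma's moderated F-test, and the lowest adjusted p was 0.807. Relative to each gene's mean over the 8 samples, the members' median was 2.72 in WT atrium, 2.51 in WT aorta and 1.12 in WT ventricle. It was -0.89, -1.16 and -1.31 in KO-labelled ventricle, aorta and atrium and -1.33 and -0.90 in C2C12. WT ventricle therefore lay below the other WT-labelled samples and above every KO-labelled and C2C12 sample in this summary. All 3 WT-labelled samples lay above every other sample in 30 of the 36 members. For members that met the filter only through the WT-labelled arrays this arrangement was largely fixed in advance. Its share over all genes was not computed.

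**Figure D5:**
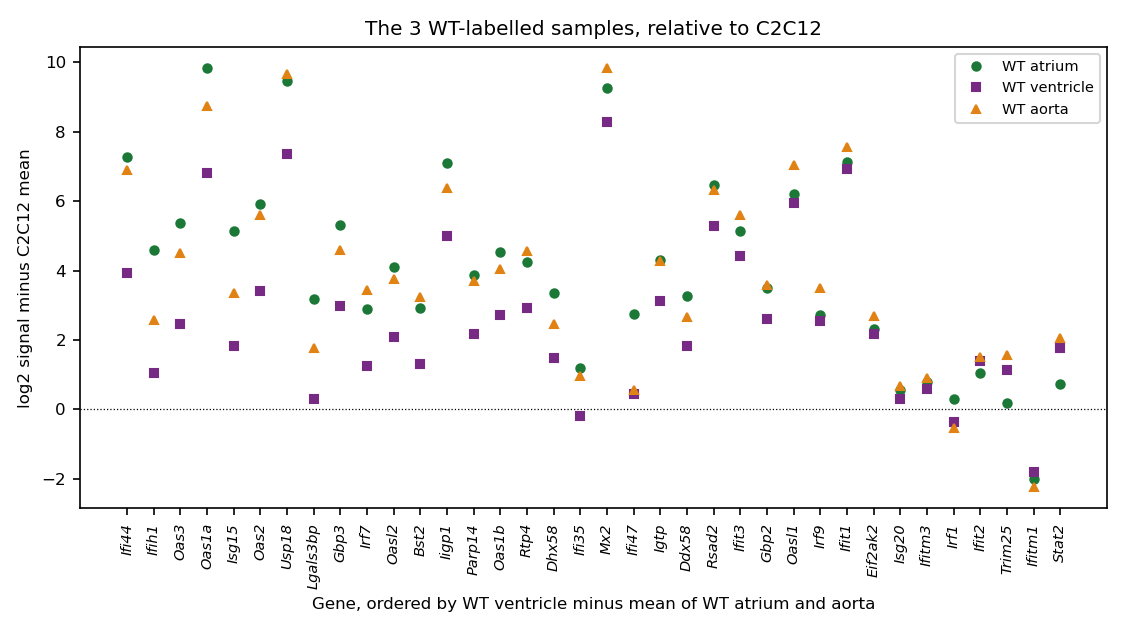
Levels of the 36 tested members in the 3 WT-labelled samples (y axis, log2 signal minus the mean of the C2C12 samples), ordered by the gap between WT ventricle and the mean of WT atrium and aorta. Squares (ventricle) lie lowest for 31 members, and the gap narrows from Ifi44 on the left to Stat2 on the right, where ventricle is no longer the lowest.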

How the data were processed

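RNA of the 11 samples had been hybridised to single-colour Agilent arrays, and the submitters' processing notes name Agilent Feature Extraction 9.5.3.1 for the scans. The deposited scanner files give, per the file headers, a background-corrected linear intensity per spot (gProcessedSignal), a flag for spots well above background and outlier flags. The authors' deposited value table holds log2 values that equalled log2 of that intensity within 0.01 for 99.7% to 99.8% of probes, with column medians of 5.45 to 5.77 and no further scaling found.

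Here 53 probes without a usable spot on every array (outlier flags) were left out, repeated spots were averaged, and log2 intensity minus the array's 75th percentile (intensities of 1014 to 1199) was used; no spot was saturated. Names came through RefSeq accessions (24348 probes), symbols (6293) or synonyms (2419), and 8061 kept the file's name. Of 16 array pairs within a group, 3 differed by less than the noise between repeated spots (0.584 to 0.691 of it, others at least 2.57) and were averaged: KO-labelled ventricle, KO-labelled aorta and a C2C12 pair, each on different slides. Probes well above background on at least 3 fitted arrays were tested, 1 per gene (the brightest), with limma 3.58.1 (lmFit, eBayes) in R 4.3.3, on the 6 heart samples for the genotype and on all 8 for C2C12, at a Benjamini-Hochberg adjusted p of 0.05. The fit was first tested on simulated data. Few samples limit the precision. Every member on the array is named, and of the pathway list the first 12 by adjusted p. Some results of that list are not reported here. Members and lists were chosen with earlier results of these data known. Alternatives covered scaling, background, filter, probe choice, array joining, slide, region and leaving out each sample.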

Additional observations from a re-analysis of the deposited data

Results flagged for a closer look

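For 2 members the KO-labelled minus WT-labelled difference changed sign between heart regions. For Isg20 it was -0.56 in atrium and -0.24 in aorta but 0.27 in ventricle. For Irf1 it was -0.74 in atrium and -0.27 in aorta but 0.23 in ventricle. Each region holds 1 sample per genotype, so these differences between regions were not tested.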

How the results depend on the processing

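Of the 28 members called between KO-labelled and WT-labelled progenitors, 28 kept their call with median scaling, quantile normalization, the deposited log2 table, the mean of a gene's probes and every array as its own sample, 27 with no filter on dim probes, 26 with the heart region as a block, which pairs the genotypes by region (Isg15 and Ifi44 lost their calls), 21 with normexp background correction and 12 with the slide as a block; none of the 28 changed sign under any of these. The lower calls numbered 14 where members had to be above background on every array (23 tested), 11 with the slide block and 15 to 24 with 1 sample left out; the median difference was -2.09 with normexp and -3.49 to -2.60 with 1 sample left out. With the slide block, the uncalled differences of Isg20 (0.38), Ifi47 (0.21), Irf1 (0.070) and Ifitm3 (0.11) turned positive. Against C2C12, KO-labelled samples had 2 members called higher with every array as its own sample and 1 with median scaling. WT-labelled samples had 15 called higher with the strictest filter and 17 to 28 with 1 sample left out, and their median was 2.13 with normexp and 2.39 to 3.46 with 1 sample left out. The strictest filter and leaving out a WT-labelled sample test fewer genes; the cause of the other changes was not tested. With the 7 members at the background in KO-labelled samples, signal over background limits the size of a difference.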
